A study of Caenorhabditis elegans with 29 samples.

Results

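The major sperm protein (MSP) genes of the nematode Caenorhabditis elegans were examined in RNA from dissected gonads, in which P granules had been depleted or mutated. The members are the 35 genes named msp- followed by a number, of 45627 genes in the deposited table. The study set out to profile how such gonads differ from control gonads as worms age; P granules are RNA-rich bodies in the cytoplasm of germ cells. In total 29 libraries fall into 10 groups, all from worms kept at 24 °C for the experiment.

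The RNAi experiment used strain DP132, and each of its 7 groups has 3 libraries. RNAi and control worms alike carry edIs6, an insertion on chromosome IV that holds rol-6 and unc-119::gfp under the promoter of the neuronal gene unc-119. P-granule RNAi targeted glh-4, pgl-3, glh-1 and pgl-1 together and began in the parents. Controls fed on bacteria with the empty vector. Dissections were done in the last larval stage (L4), and in adults aged 1 day (Day 1) or 2 days (Day 2) beyond it. Day 2 RNAi gonads were collected apart by whether they visibly expressed the reporter (GFP-positive or GFP-negative). The mutant experiment compared Day 1 gonads of SS0002, pgl-1(ct131) him-3(e1147) IV (n = 3), which carries a mutation in a second gene, and of SS0804, glh-1(gk100) I (n = 2), with wild-type strain SS1174 (n = 3). Only sterile RNAi adults and fully fertile control adults were dissected. Control gonads and large RNAi gonads were cut at the bend, whereas stunted RNAi gonads were taken whole, so the length of gonad sampled differed along with the treatment and the 2 cannot be told apart. Sterility could not be scored at L4, and over 80 percent of older siblings were sterile. Each RNAi library pooled 125 to 150 gonads and each control library of that experiment 75 to 100. The labels give no gonad numbers for the mutants.

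MSP is the main structural protein of nematode sperm. It is stored in developing spermatocytes as fibrous bodies and later polymerises into the filaments that drive the crawling of the mature sperm, and MSP released from sperm also signals to oocytes and to the sheath cells of the gonad to trigger oocyte maturation and ovulation. A hermaphrodite germline makes sperm in the last larval stage and then switches to oocytes for the rest of adult life.

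The 35 genes are short and each has a single exon in the WBcel235 annotation, from which all positions here were taken by gene identifier. For the deposited values themselves no build is stated. A length of 384 bases is shared by 28 of them, and the others span 181 to 402 bases. They lie in 3 position groups separated by more than 2 Mb. On chromosome II, 15 genes run from msp-3 (start 4785898) to msp-64 (end 5810330). A first group on chromosome IV holds 10 genes, from msp-55 (start 5055631) to msp-65 (end 5316906), and a second holds another 10, from msp-76 (start 9689015) to msp-37 (end 10144175). The table types 30 members as coding and 5 as pseudogenes (msp-37, msp-42, msp-52, msp-58 and msp-71), and 28 of the 35 belong to the authors' sperm category of 858 genes. Of these 5, msp-58 is typed as protein-coding in the WBcel235 annotation. Because the genes are near copies, reads can be shared between them, how such reads were counted is not stated, and the summed level is given beside single genes. Further, 5 members overlap another gene, and the library kit does not mark strand: msp-33 lies in an intron of gst-9, msp-31 in an intron of aagr-2, msp-45 in an intron of srb-13, msp-38 in an intron of dhs-12, and msp-37 over an exon of dhs-12.

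Levels are read counts normalized by a factor per library, as in the deposited group averages, and the values of single libraries were worked out from those averages. Libraries of a group are called a, b and c by falling depth, because their replicate numbers could not be assigned. Depth ran from 1027223 to 9079321 gene reads per library. By group means, the 4 RNAi targets stood at 0.701 to 10.9 percent of their control level in the RNAi groups. Library b of the L4 RNAi gonads held more of each target than its replicates. Its glh-1 level was 435, against 103 and 73.4 in libraries a and c and a mean of 2323 in L4 controls. The level of pgl-1 was 131, 122 and 308 in the pgl-1 him-3 mutant, against 1803, 2339 and 1113 in wild type. That of glh-1 was 1942 and 2311 in the glh-1 mutant, against 1104, 2218 and 954 in wild type; it was not lower, and a level over the whole gene does not check an allele whose changed stretch the labels do not give. Markers of oocytes, distal germ cells and gonadal sheath were present in all 10 groups. Library c of the Day 1 controls stood apart, with reads on 17627 genes at 1221224 reads, more genes than in the deeper libraries a and b, and it held the highest msp level of its group. Library c of the Day 1 RNAi gonads, the shallowest of all, likewise had reads on more genes than its deeper replicates, 19256 in all.

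The sum of the 35 msp levels was high in every RNAi group and in L4 controls, and low in adult controls. In L4 RNAi gonads it was 5540, 4197 and 2336 normalized reads (4024 ± 1609, SD, n = 3), against 8629, 5384 and 6174 in L4 controls (6729 ± 1692, SD, n = 3). Day 1 RNAi gonads had 3277, 9876 and 4241 (5798 ± 3564, SD, n = 3), against 28.7, 22.7 and 63.7 in Day 1 controls (38.4 ± 22.2, SD, n = 3). At Day 2, GFP-positive RNAi gonads had 2433, 489 and 1516 (1479 ± 972, SD, n = 3), and GFP-negative RNAi gonads had 2229, 2154 and 3034 (2472 ± 488, SD, n = 3). Day 2 controls had 14, 16.9 and 16.7 (15.9 ± 1.64, SD, n = 3). Every RNAi library and every L4 control library thus held at least 489 normalized reads on the 35 genes, and no adult control held more than 63.7.

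**Figure D1:**
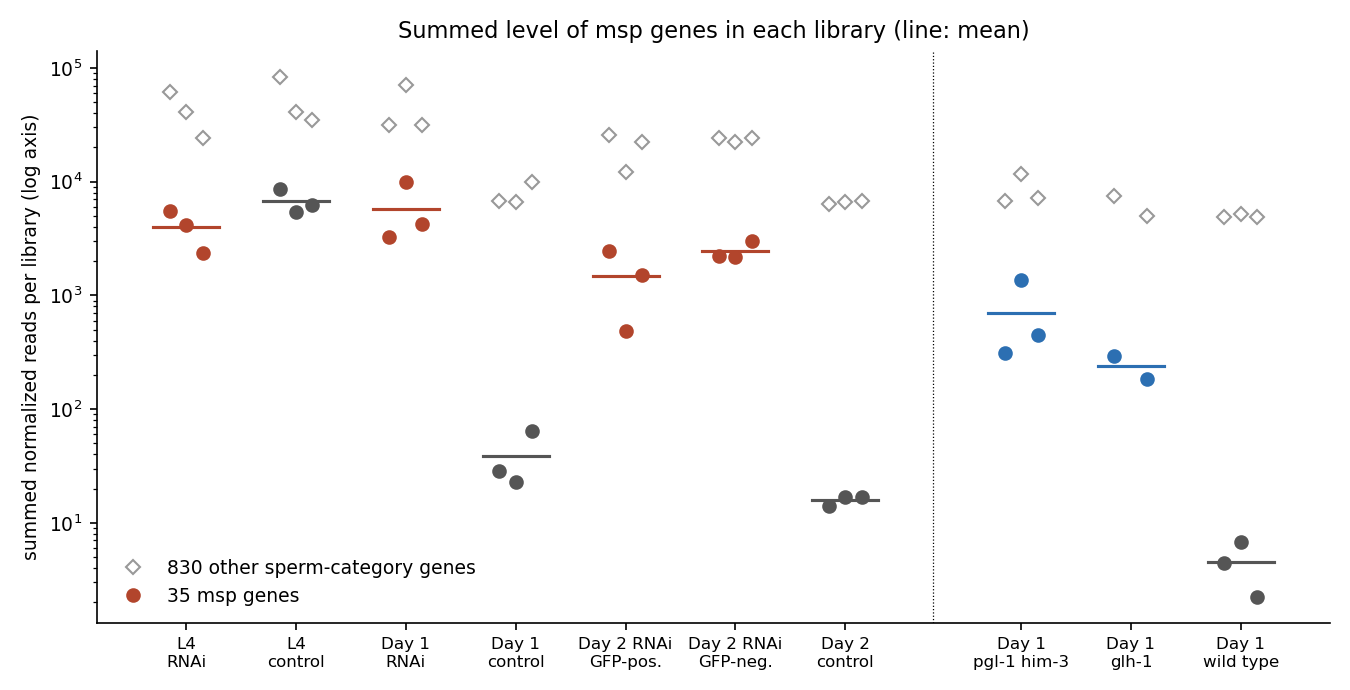
Summed normalized reads of the 35 msp genes (filled points) and of 830 other genes of the authors' sperm category (open diamonds) in each of 29 libraries, on a log axis, by group; horizontal lines are means of the msp sums, and the dotted line separates the RNAi and mutant experiments, which were normalized apart. Adult controls and wild type lie between 2.24 and 63.7, and all other libraries lie at 183.8 or above.

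Ordered by mean sum in the RNAi experiment, L4 controls came first, followed by Day 1 RNAi, L4 RNAi, Day 2 GFP-negative, Day 2 GFP-positive, Day 1 control and Day 2 control gonads. The ranges of neighbours in this order overlapped from L4 controls down to GFP-positive gonads. No library of Day 1 controls came near a GFP-positive library (63.7 at most against 489 at least), and Day 2 controls lay below Day 1 controls without overlap. As a share of all gene reads, msp genes took 0.0675 to 0.140 percent in L4 RNAi gonads and 0.138 to 0.227 percent in L4 controls. Their share was 0.0974 to 0.284 percent in Day 1 RNAi gonads, against 0.000638 to 0.00172 percent in Day 1 controls. In bulk gonads, more cells that carry a transcript and more transcript per cell cannot be told apart.

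At L4, msp levels did not pass the test in either direction. The authors' deposited table called 0 of 34 tested members higher and 0 lower (lowest adjusted p = 0.721), where 0.119 percent of all genes tested were called higher and 0.0824 percent lower. Refitting the libraries with limma voom also called 0 of 35, where it called 0.0 percent of all genes higher and 0.0298 percent lower. An unadjusted p under 0.05 was found for 8 members, or 22.9 percent, against 4.17 percent of all genes. All but msp-63 had a negative fold change in the authors' deposited table, with a median log2 value of -0.46 over the members, against 0.03 over all genes with a value. The summed level in L4 RNAi gonads was 59.8 percent of that in L4 controls, with overlapping libraries. In 15 of the 35 genes every L4 RNAi library lay below every L4 control library, where 3.8 percent of all genes counted did so. In 0 members did all L4 RNAi libraries lie above, where 5.58 percent of all genes counted did so. The other 830 sperm-category genes summed to 79.2 percent of the L4 control level.

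Library a of the L4 RNAi gonads, the one with the highest msp sum of its group, stood apart from its replicates in markers of other cells. Its oocyte markers summed to 12541 normalized reads, against 38722 in library b and 38385 in library c. Its body wall muscle markers summed to 12324, against 2896 and 3181, and its hypodermis markers (6 of 6 found) to 8565, against 1321 and 1760. L4 controls ranged from 16886 to 35569 in oocyte markers, 5702 to 8552 in muscle markers and 3661 to 6337 in hypodermis markers. Without L4 RNAi library a the msp sum in L4 RNAi gonads was 0.485 of that in L4 controls and no longer overlapped. Among L4 controls, library a likewise had the lowest oocyte markers and the highest muscle and hypodermis markers, with the highest msp sum (8629). Without that control library the ratio was 0.696 and the libraries overlapped. Limma voom called 0 of 35 members without either library. The part of these markers in the msp level was not tested.

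Single genes differed in whether their libraries overlapped. msp-36, the member with the highest level in L4 controls, had 265, 149 and 116 normalized reads in L4 RNAi gonads against 494, 307 and 302 in L4 controls; no library overlapped, but the adjusted p in the authors' deposited table was 0.824. msp-40, the member with the highest level in L4 RNAi gonads, had 353, 267 and 142 against 421, 257 and 323, and its groups overlapped. msp-81 had the lowest ratio, with 216, 152 and 71.2 in L4 RNAi gonads against 452, 270 and 295 in L4 controls, a deposited log2 fold change of -0.83 (adjusted p = 0.787 in the authors' deposited table). msp-63 stood at 30.5, 25.3 and 8.9 against 30.3, 16 and 17.4, the only member whose mean was not lower in L4 RNAi gonads.

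By Day 1 of adulthood, msp transcripts had nearly gone from the dissected part of control gonads, which were cut at the bend. The sum in Day 1 controls was 0.570 percent of that in L4 controls, 38.4 ± 22.2 against 6729 ± 1692 (SD, n = 3 each). All 35 members fell by limma voom (adjusted p from 6.16e-05 to 0.0141), where 15.4 percent of all genes were called lower. The log2 changes ran from -8.58 for msp-3 to -3.42 for msp-37, with a median of -7.21 over the members and -0.43 over all genes. In the 3 Day 1 control libraries together, 97 reads fell on the 35 genes, 26 genes had 3 reads or fewer, and msp-3, msp-37, msp-57, msp-74 and msp-113 had none.

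In P-granule RNAi gonads of the same age, of which stunted ones were taken whole, the msp sum stayed high. The summed level in Day 1 RNAi gonads was 144 percent of that in L4 RNAi gonads, with overlapping libraries, and limma voom called 0 of 35 members, where 0.136 percent of all genes were called higher and 0.209 percent lower. At an unadjusted p under 0.05 there were 0 members, against 9.4 percent of all genes. Without Day 1 RNAi library b the sum was 0.934 times the L4 RNAi sum. Against Day 1 controls, all 32 members with an adjusted p were higher in the authors' deposited table (adjusted p from 2.27e-28 for msp-40 to 0.0169 for msp-42), where 19.4 percent of all genes tested were called higher. The remaining msp-37, msp-49 and msp-64 had no adjusted p there, and limma voom called all 35 members higher, where it called 12.3 percent of all genes. Deposited log2 fold changes ran from 1.42 for msp-37 to 6.96 for msp-3, with a median of 5.83 over all members and 0.28 over all genes with a value. In 34 of 35 members every Day 1 RNAi library lay above every control library, where 20.6 percent of all genes counted did so. The exception, msp-74, overlapped, since Day 1 RNAi library c had no read on it, as had the controls. In Day 1 controls 17 of the 35 members averaged under 1 normalized read, so for these being counted depended on the RNAi level. This overlap count is a description, not a test.

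The summed level in Day 1 RNAi gonads was 151 times that in Day 1 controls, 98.0 times without RNAi library b, the library with the highest sum, and 226 times without control library c. How the authors chose their sperm category is not stated, so it is no independent evidence. Its other genes together stood at 5.75 times their control level, with 550 of 731 tested called higher and 2 lower in the authors' deposited table. Of all genes tested, 19.4 percent were called higher and 10.4 percent lower. Members made up 9.34 to 12.2 percent of all reads on members and sperm-category genes in Day 1 RNAi libraries, within the 8.28 to 15.0 percent of the L4 libraries of both treatments. In Day 1 controls they made up 0.340 to 0.631 percent. The intervals of those control shares (Wilson, 95 percent) reached from 0.234 to 0.963 percent and cover counting error only.

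The members with the highest levels, all 384 bases long, moved alike at Day 1. msp-40 had 191, 541 and 192 normalized reads in Day 1 RNAi gonads, against 0.586, 0.840 and 3.03 in Day 1 controls. msp-31 had 136, 498 and 268 against 2.93, 1.68 and 9.10, the highest level of any member in those controls, and it lies in an intron of aagr-2, whose own level was 630 against 49.7. msp-64 had 174, 644 and 199 against 0, 0 and 3.03, a single control read. RNAi library b was the highest in all 35 members, and in these 3 genes no library of one group reached the other.

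msp-36 had 92.5, 333 and 113 normalized reads in Day 1 RNAi gonads against 0.586, 0.840 and 3.03 in Day 1 controls. msp-81 had 99.7, 349 and 130 against 2.34, 0 and 0. msp-142 had 142, 383 and 141 against 0.586, 0.840 and 0. Control values this low rest on 2 to 4 reads per gene over the group. msp-3 had the largest deposited fold change, with 109, 421 and 192 against no read in any control library; its mean was at least 259-fold higher than the level of 3 reads over that group. msp-37, typed as a pseudogene and 181 bases long, was the lowest member at 1.80, 8.30 and 3.43 against no read, at least 4.85-fold higher by the same floor, and its reads cannot be told from those of dhs-12 where the genes overlap.

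**Figure D2:**
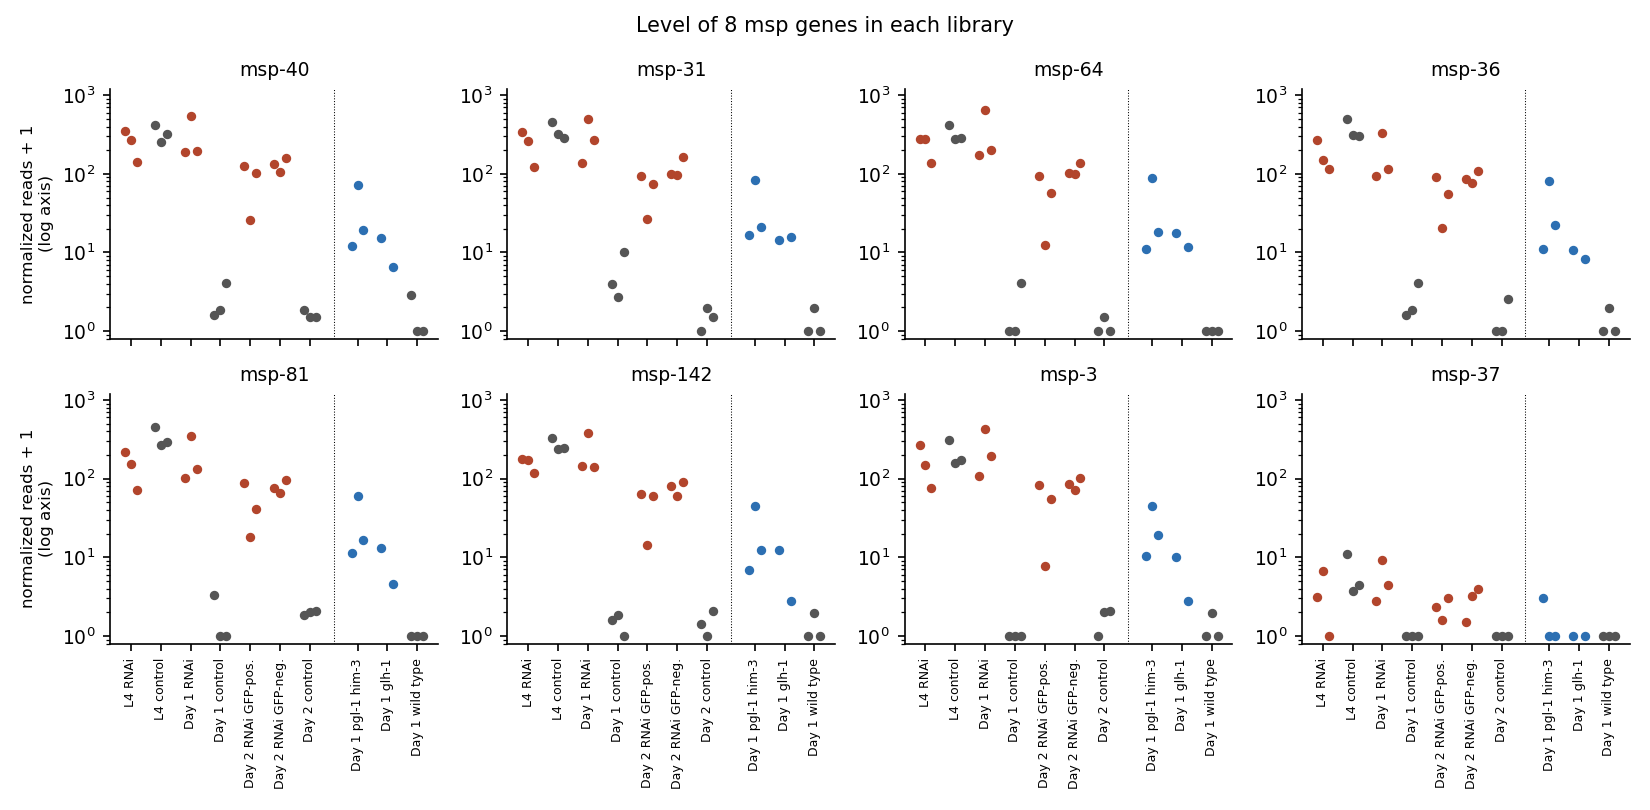
Normalized reads plus 1 on a log axis for 8 msp genes in each of the 29 libraries: the 6 with the highest mean level in the RNAi experiment and those with the largest (msp-3) and smallest (msp-37) deposited fold change at Day 1. For the first 7, adult RNAi libraries lie far above adult controls, while L4 RNAi and L4 control libraries lie much closer together. For msp-64, msp-36, msp-81 and msp-142 every L4 RNAi library is still below every L4 control library. msp-37 is near the floor in all groups.

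The genes typed as pseudogenes by the authors followed the coding ones. Among them is msp-58, which the WBcel235 annotation types as protein-coding. msp-58 averaged 84.7 ± 38.8 normalized reads in Day 1 RNAi gonads and 1.49 ± 1.35 in Day 1 controls, msp-71 averaged 74.6 ± 49.4 and 2.22 ± 3.35, and msp-52 averaged 67.7 ± 38.9 and 1.21 ± 1.61 (SD, n = 3 each). msp-42 was lower, at 14.1 ± 11.4 in Day 1 RNAi gonads and 1.01 ± 1.75 in Day 1 controls. Since these genes resemble their coding copies, reads of a coding gene placed on a pseudogene cannot be told from its own.

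**Figure D3:**
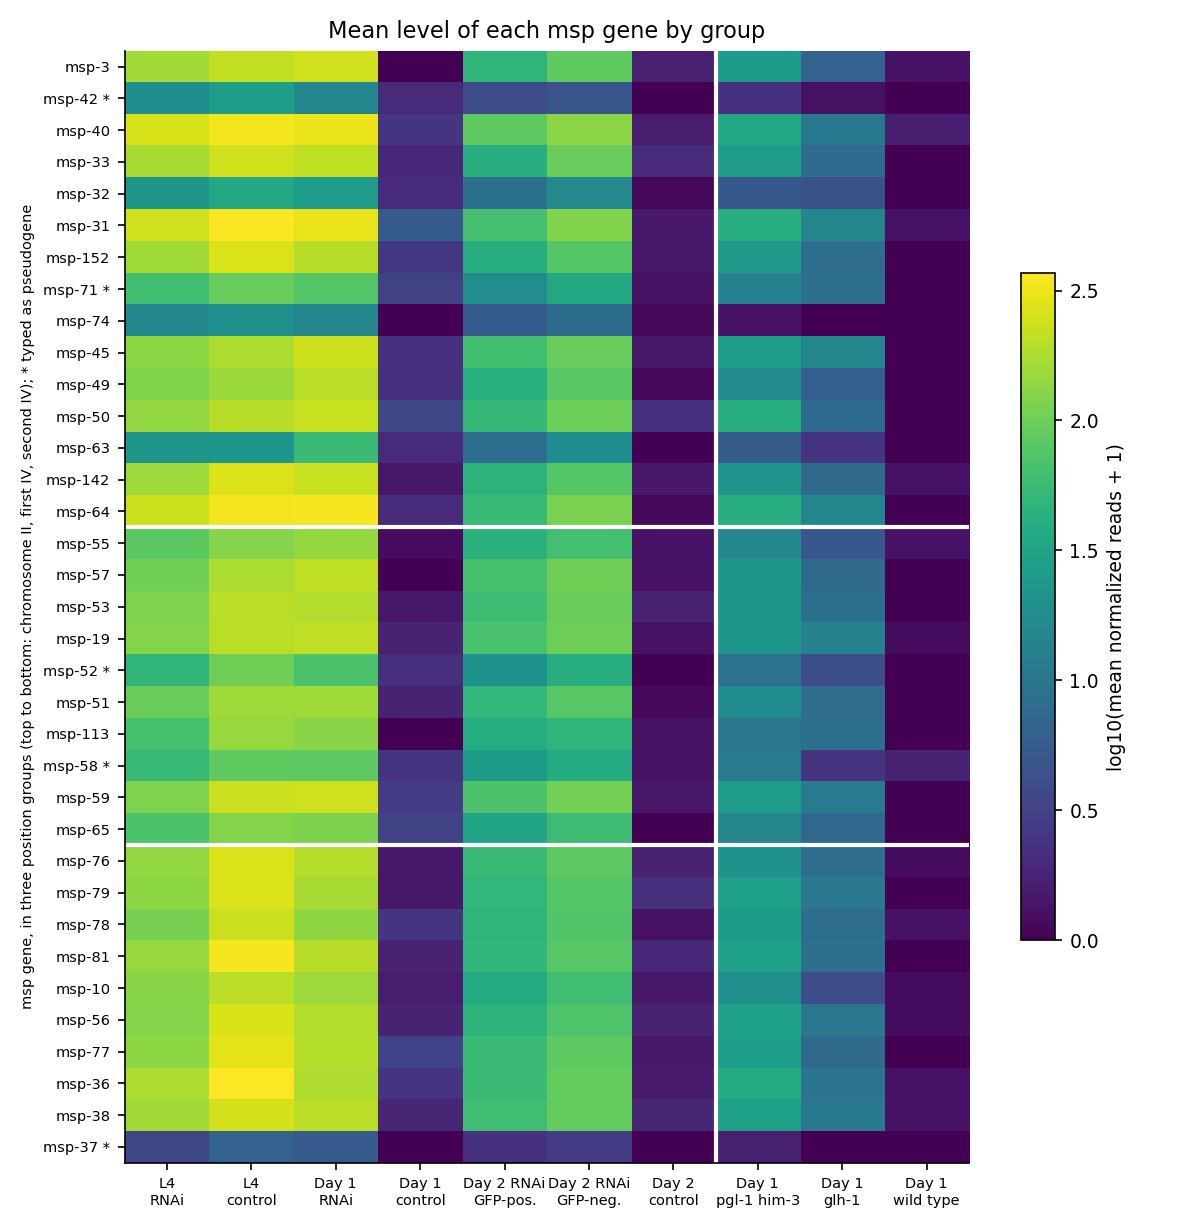
Mean level of each of the 35 msp genes (rows, in chromosome order within 3 position groups divided by white lines; a star marks a gene typed as a pseudogene) in each of the 10 groups (columns), as log10 of mean normalized reads plus 1. The columns of Day 1 controls, Day 2 controls and wild type are dark in nearly every row.

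The difference between stages was itself tested. The RNAi effect at Day 1 minus that at L4 was called above 0 for 34 of 35 members by limma voom, where 4.45 percent of all genes were called. msp-63 was the exception, with a log2 difference of 5.35 (SE 1.56, adjusted p = 0.0560 by limma voom), and its 3 Day 1 RNAi libraries ranged from 13.5 to 124. For msp-40 the log2 difference was 7.74 (SE 1.39) and for msp-3 it was 8.86 (SE 1.58). The median over the members was 7.50, against 1.00 over all genes.

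At Day 2 the msp genes were again far above controls in both kinds of RNAi gonad. In GFP-negative gonads all 35 members were higher in the authors' deposited table, where 38.2 percent of all genes tested were called higher, with log2 fold changes from 3.20 for msp-37 to 7.87 for msp-64. The GFP-positive comparison called 34 of 35 in the authors' deposited table, against 44.3 percent of all genes, and the member not called was msp-37 (log2 fold change 3.37, adjusted p = 0.0752). The summed level was 156 times the Day 2 control level in GFP-negative gonads and 93.1 times in GFP-positive gonads. No library of any member overlapped its controls in either comparison, where 53.8 and 62.7 percent of all genes counted lay wholly above. In Day 2 controls 32 of the 35 members averaged under 1 normalized read, so for these being counted depended on the RNAi level. These overlap counts are a description, not a test. Both comparisons use the same 3 control libraries.

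Within Day 2 RNAi gonads, the GFP-positive ones had the lower mean msp sum, with overlapping libraries. This mean was 59.8 percent of that in GFP-negative gonads. The ratio was 0.799 without GFP-positive library b and 0.406 without GFP-positive library a. The authors' deposited table had 6 members lower (msp-10, msp-52, msp-53, msp-56, msp-65 and msp-71, log2 fold changes down to -1.17), or 17.1 percent of 35 tested, where 18.6 percent of all genes were called lower. Limma voom called 0 of 35, where it called 6.13 percent of all genes lower. At an unadjusted p under 0.05 there were 6 members, or 17.1 percent, against 30.4 percent of all genes. In 7 members all GFP-positive libraries lay below all GFP-negative ones, where 15.1 percent of all genes counted did so. msp-53 had 100.3, 26.8 and 47.1 normalized reads in GFP-positive gonads against 91.6, 88.1 and 113 in GFP-negative gonads, so libraries b and c were low and library a was not. GFP-positive library b was the lowest of its group in all 35 members, and the msp share of its sperm-category reads was 3.83 percent, against 6.30 to 8.56 percent in the other 2 libraries of its group.

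Between Day 1 and Day 2 the sum in RNAi gonads without visible reporter was lower at the later time. GFP-negative Day 2 gonads stood at 42.6 percent of Day 1 RNAi gonads with no overlap, and at 0.658 of it without Day 1 RNAi library b. All 35 members had a lower mean at Day 2, with ratios from 0.261 for msp-42 to 0.612 for msp-32. Limma voom called 0 of 35, where it called 0.115 percent of all genes higher and 0.0128 percent lower. An unadjusted p under 0.05 was found for 25 members, or 71.4 percent, against 15.3 percent of all genes. In controls the sum at Day 2 was 41.4 percent of that at Day 1, on 99 reads against 97, and limma voom called 0 of 35 members, where it called 0.00426 percent of all genes in each direction. Of the members 2 had an unadjusted p under 0.05, or 5.71 percent, against 14.5 percent of all genes.

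The 2 mutants also held msp transcripts as Day 1 adults, and wild type held almost none. In pgl-1 him-3 gonads the sum was 308, 1362 and 451 normalized reads (707 ± 572, SD, n = 3), against 4.39, 6.82 and 2.24 in wild type (4.48 ± 2.29, SD, n = 3). In glh-1 gonads it was 295 and 184 (239 ± 78.3, SD, n = 2) against the same wild-type libraries. Wild type gave 15 msp reads in all, and 22 of 35 members had none. The sum was 158 times wild type in pgl-1 him-3 gonads, 84.7 times without its library b, and 53.3 times in glh-1 gonads.

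All 32 members with an adjusted p were higher in pgl-1 him-3 gonads in the authors' deposited table, where 22.3 percent of all genes tested were called higher; msp-37, msp-42 and msp-74 had none. The largest deposited log2 fold change was 5.12 for msp-50, which had 10.5, 77.9 and 29.7 normalized reads against no read in wild type, at least 40.2-fold higher than the level of 3 reads over that group. Limma voom called 31 of 33 members higher, all but msp-42 and msp-63, where it called 24.0 percent of all genes. Library b was the highest of the mutant in 33 of 35 members. Every library of 32 of 33 members counted lay above wild type, where 33.5 percent of all genes counted did so. Left out were msp-37 and msp-74, with reads in library a only. All 35 members averaged under 1 normalized read in wild type, so being counted depended on the mutant level. That count is a description, not a test. Limma voom likewise kept a member only by its level in a mutant, so the 31 of 33 carries the same limit.

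In glh-1 gonads 6 of 24 members with an adjusted p were higher in the authors' deposited table (msp-19, msp-31, msp-45, msp-59, msp-64 and msp-79), where 6.68 percent of all genes tested were called higher. Their log2 fold changes lay between 1.92 and 2.42. msp-45 had 13.3 and 14.6 normalized reads in glh-1 gonads against none in wild type, and msp-64 had 16.9 and 10.9 against none. Limma voom called 17 of 33, where it called 5.37 percent of all genes, and the count fell to 0 without wild-type library b, to 1 without wild-type library a and to 3 without glh-1 library a, where the 1 glh-1 library left is assumed to vary like the other groups. Both glh-1 libraries lay above all wild-type libraries in 30 of 32 members counted, where 28.5 percent of all genes counted did so. Those left out, msp-37, msp-42 and msp-74, had at most 1 read in glh-1 gonads and none in wild type. Whether a member was counted thus depended on its glh-1 level, and the count is a description, not a test. Limma voom kept a member only by its level in either mutant, so the 17 of 33 carries a like limit. Between the mutants, the sum in pgl-1 him-3 gonads was 2.96 times that in glh-1 gonads (1.59 times without pgl-1 him-3 library b), and limma voom called 0 of 33 members, where it called 0.204 percent of all genes higher and 0.105 percent lower. Those at an unadjusted p under 0.05 were 4 members, or 12.1 percent, and 12.2 percent of all genes.

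**Figure D4:**
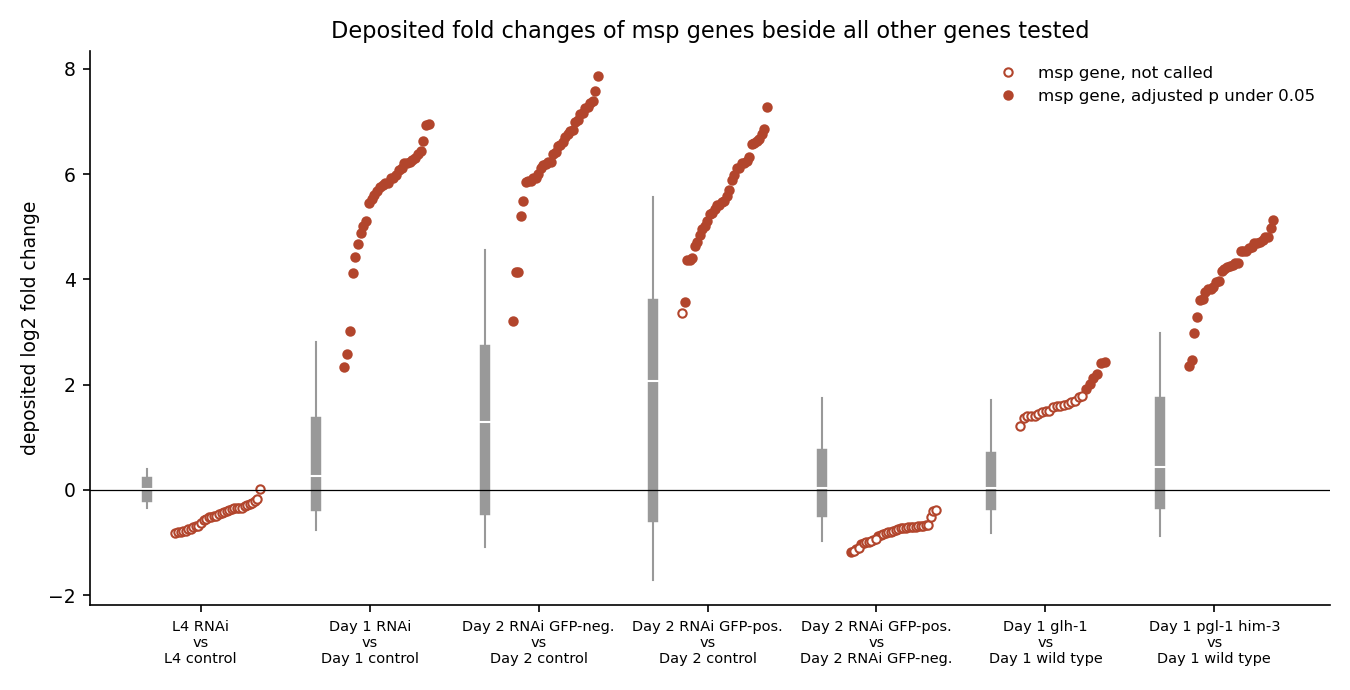
Deposited log2 fold changes of the msp genes that have an adjusted p (points, sorted; filled where adjusted p is under 0.05) beside all other genes tested (grey: 5th to 95th percentile thin, quartiles thick, median white) in the 7 deposited comparisons. The msp points lie below 0 at L4 except 1, above 0 in the adult comparisons with controls or wild type, and below 0 for GFP-positive against GFP-negative gonads.

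The 3 position groups did not keep the same share of msp reads across the L4 groups. This pattern was noticed after the values were seen and has no test. The chromosome II genes took 47.0 to 47.9 percent of msp reads in L4 RNAi libraries and 39.3 to 40.8 percent in L4 controls. The second chromosome IV group took 26.8 to 34.5 percent in L4 RNAi libraries and 36.5 to 37 percent in L4 controls, so neither pair of ranges overlapped. In the first chromosome IV group the ranges did overlap, at 18.4 to 25.3 percent and 22.4 to 23.7 percent. The median ratio of L4 RNAi to L4 control means was 0.712 over the chromosome II genes, 0.584 over the first chromosome IV group and 0.482 over the second.

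Day 1 RNAi gonads had the second chromosome IV group at 27.4 to 27.8 percent of msp reads, below all L4 control libraries. The chromosome II share did not repeat its L4 difference, at 40.4, 49.0 and 42.6 percent, overlapping the L4 controls. The first chromosome IV group took 32.2, 23.4 and 29.6 percent and also overlapped them. Compared with L4 controls, none of the 10 genes in the second chromosome IV group had a higher mean in Day 1 RNAi gonads (median ratio 0.688). In the first chromosome IV group 5 of 10 did (median ratio 0.997), and on chromosome II 6 of 15 did (median ratio 0.879). The extremes were msp-36, at 0.488 of its L4 control mean, and msp-63, at 2.60. Reads shared between near copies could move such shares, and their part was not tested.

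**Figure D5:**
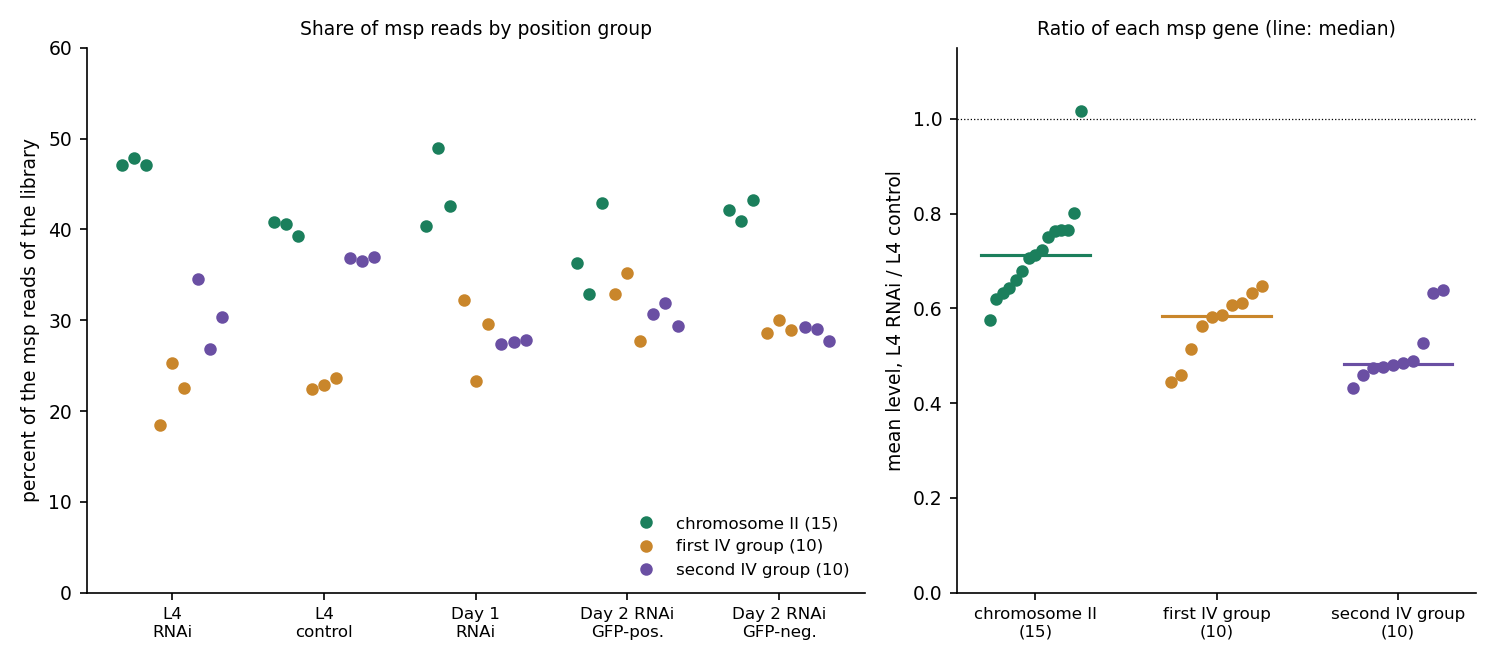
Left, the share of a library's msp reads that fell on each of the 3 position groups, per library (points), in 5 groups of the RNAi experiment; right, the ratio of mean level in L4 RNAi to L4 control gonads for each gene, with the median of its position group. The chromosome II share is higher and the second chromosome IV share lower in L4 RNAi than in L4 control libraries.

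Genes that act around MSP were read from 4 lists. At L4 none of 62 genes tested in the 4 lists was called in the authors' deposited table, and limma voom called 0 of 68, with 3 (fog-1, efn-2 and inx-8) at an unadjusted p under 0.05, where 4.17 percent of all genes were. At Day 1, 2 of 12 regulators of the sperm fate and its transcription were higher in the authors' deposited table and 1 was lower, where 19.4 percent of all genes tested were higher and 10.4 percent lower. Those higher, fog-3 and fog-1, were named after their values were seen. fog-3, a germline gene required for sperm fate, was at 60.1 ± 28.9 normalized reads in Day 1 RNAi gonads and 0.195 ± 0.338 in Day 1 controls. fog-1, needed for the same choice, was at 318 ± 18.3 and 118.95 ± 6.51 (SD, n = 3 each). gld-1, a translational repressor of meiotic germ cells, was lower, at 3006 ± 428 and 4886 ± 73.0. The transcription factor gene spe-44, which drives many sperm genes and is named here after its values were seen, averaged 88.3 ± 36.5 and 113 ± 9.77 (adjusted p = 0.457 in the authors' deposited table). cpb-1, which encodes a CPEB RNA-binding protein needed in spermatocytes, was at 370 ± 97.8 and 377 ± 59.6, and tra-1, which directs sexual fate, was at 759.7 ± 131 and 880.1 ± 32; neither was called.

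The list for MSP fibrous bodies and their organelles held 15 names, of which 10 were found in the table. At Day 1, 7 of 9 tested were higher in RNAi gonads in the authors' deposited table and 2 lower. Over all genes tested, 19.4 percent were called higher and 10.4 percent lower. spe-18, needed for fibrous body assembly, averaged 368 ± 225 normalized reads in Day 1 RNAi gonads and 2.94 ± 1.21 in Day 1 controls, and spe-15, for a myosin that sorts organelles as spermatids form, averaged 353 ± 124 and 56.1 ± 24.4 (SD, n = 3 each). The 2 lower genes were spe-39, whose product acts in vesicle traffic in many tissues, and wee-1.3, a kinase gene that also acts in oocytes; wee-1.3 averaged 1013 ± 105 and 1344 ± 98.4. In pgl-1 him-3 gonads 4 of 8 tested were higher and in glh-1 gonads 1 of 5, spe-15, in the authors' deposited table. Over all genes tested, 22.3 percent were called higher in pgl-1 him-3 gonads and 6.68 percent in glh-1 gonads.

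Of 17 other genes with an MSP domain, 13 of 14 tested were higher at Day 1 in the authors' deposited table. Of all genes tested there, 19.4 percent were called higher. ssp-9, a sperm-specific protein gene of this class, averaged 220 ± 136 normalized reads in Day 1 RNAi gonads, with no read in any Day 1 control. The exception was vpr-1, a VAP protein gene that most cells use, at 630 ± 60.5 in RNAi gonads and 667 ± 32.9 in controls (adjusted p = 0.509 in the authors' deposited table). In pgl-1 him-3 gonads 9 of 13 of this list were higher and in glh-1 gonads 1 of 3, ssp-10, in the authors' deposited table. The shares of all genes tested that were called higher were 22.3 percent in pgl-1 him-3 gonads and 6.68 percent in glh-1 gonads.

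The cells that respond to MSP express receptors and signalling genes, and this list moved both ways. At Day 1, 10 of 29 genes were higher and 8 lower in RNAi gonads in the authors' deposited table, where 19.4 percent of all genes tested were called higher and 10.4 percent lower. Higher ones included 2 genes named after their values were seen. gsa-1, a G protein gene acting in sheath cells, was at 172 ± 47.4 normalized reads in Day 1 RNAi gonads and 28.0 ± 10.98 in Day 1 controls. inx-8, a sheath gap junction gene, was at 460 ± 113 and 158 ± 47.0 (SD, n = 3 each). Summed sheath and spermatheca markers were lower, at 5614 to 5722 in Day 1 RNAi libraries and 6318 to 6771 in Day 1 controls. Which cells gave the higher reads was not tested. Lower genes of this list included oma-1 at 785 ± 106 and 1389 ± 68.0, oma-2 at 978 ± 197 and 2195 ± 66.5, and lin-41 at 1413 ± 300 and 2574 ± 164, all regulators of oocyte maturation. The Eph receptor gene vab-1, whose product binds MSP, was also lower and was named after its values were seen, at 640 ± 86.7 and 856 ± 35.7. In the mutants 0 genes of this list were called lower in the authors' deposited table, where 8.84 percent of all genes tested were lower in pgl-1 him-3 and 2.47 percent in glh-1 gonads, while 13 of 28 were higher in pgl-1 him-3 gonads and 5 of 27 in glh-1 gonads, where 22.3 and 6.68 percent of all genes tested were higher.

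The non-members whose group means followed the msp sum most closely were sought over the 7 groups of the RNAi experiment, by Pearson's r of log2 values with a pseudocount of 1. They were F21H7.5, sss-2, T08B2.12, F26B1.8 and ssp-16, all with r of at least 0.999. F21H7.5 averaged 222 normalized reads in Day 1 RNAi gonads and 2.02 in Day 1 controls. Outside the authors' sperm category the closest were F26B1.8, ZK596.2, W02D7.4, Y59E9AL.2 and B0511.11. These values share libraries and normalization, and are a description over 7 points.

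Markers of other cells also differed between the groups at Day 1. A list of 15 sperm genes without any msp gene, 14 of them found, summed to 2440 to 5520 normalized reads in Day 1 RNAi libraries and 12.6 to 91.0 in Day 1 controls, where nspd-1 had no read. Body wall muscle markers (7 of 7 found) summed to 2118 to 3881 and 420 to 1210.8, intestine markers (11 of 11) to 81485 to 315830 and 35493 to 72063, and neuron markers (8 of 8) to 805 to 930 and 382 to 492. Hypodermis markers (6 of 6) summed to 374 to 1057 and 110 to 407, and these ranges overlapped. Oocyte markers (14 of 14) were lower, at 36180 to 48659 in Day 1 RNAi libraries and 56036 to 58873 in Day 1 controls. Distal germ cell markers (11 of 11) were lower too, at 6496 to 8056 and 10602 to 11007, as were sheath and spermatheca markers (10 of 10), at 5614 to 5722 and 6318 to 6771. Their part in the msp difference was not tested.

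At Day 2, GFP-positive and GFP-negative gonads had sperm marker sums of 593 to 1804 and 1380 to 1670, against 12.7 to 27.7 in Day 2 controls. Neuron markers stood at 3388 to 4227 in GFP-positive and 1088 to 1462 in GFP-negative gonads, against 401 to 471 in controls. Muscle markers stood at 5429 to 7294 in GFP-positive and 3688 to 4328 in GFP-negative gonads, against 380 to 443 in controls. Intestine markers stood at 200332 to 267466 in GFP-positive and 147345 to 191328 in GFP-negative gonads, against 26034 to 43980 in controls. Distal germ cell markers were lower, at 2856 to 3793 in GFP-positive and 5600 to 6503 in GFP-negative gonads, against 11213 to 11217 in controls. None of these ranges overlapped the controls. Oocyte markers stood at 42257 to 47400 in GFP-positive and 48917 to 54301 in GFP-negative gonads, against 53466.5 to 63408 in controls. Sheath and spermatheca markers stood at 5852 to 6201 and 6146 to 6782, against 6550 to 7181. For both of these lists GFP-negative libraries overlapped the controls. The part of all these markers in the msp difference was not tested. In the mutants, sperm markers summed to 185 to 802 in pgl-1 him-3 and 72.8 to 191 in glh-1 gonads, against 10.7 to 13.4 in wild type, where 10 of the 14 had no read. Intestine markers lay above wild type in both mutants, at 52630 to 79566 in pgl-1 him-3 and 23872 to 98943 in glh-1 gonads, against 16320 to 21559 in wild type. Muscle markers stood at 1106 to 1259 in pgl-1 him-3 and 626 to 1741 in glh-1 gonads, against 295 to 631 in wild type, so glh-1 and wild-type libraries overlapped. Oocyte markers lay below wild type, at 29004 to 32804 in pgl-1 him-3 and 31750 to 35406 in glh-1 gonads, against 38983 to 44679 in wild type. Distal germ cell markers did so too, at 5370 to 6731 in pgl-1 him-3 and 6499 to 6816 in glh-1 gonads, against 8469 to 8597 in wild type. So did sheath and spermatheca markers, at 3455 to 3692 in pgl-1 him-3 and 4098 to 4367 in glh-1 gonads, against 4489 to 5136 in wild type. Again, their part was not tested.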

How the data were processed

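RNA of dissected gonads was depleted of ribosomal RNA and made into libraries with a kit that does not mark strand, per the labels' protocols. The submitters' processing notes list TopHat2 and DESeq2 as tools of the authors; no version, read counter or build is stated in the sources used here. The deposited signal values are group averages of normalized read counts, per the file headers, with the RNAi and mutant experiments normalized apart by the authors. The authors deposited a log2 fold change and a Benjamini-Hochberg adjusted p-value for each of 7 comparisons, per the file headers. The deposited log2 values can be smaller in size than the log2 ratios of the averages, in low genes and in others. For msp-81 at L4 the ratio of means was 0.431, the deposited log2 value was -0.83 and that of limma voom was -1.26. Membership of the sperm category was used as the authors gave it.

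Few sets of whole reads can give a deposited average of 2 or 3 libraries, so single libraries could be recovered. The recovered values gave the deposited mean expression within a relative 1e-06 in 100 percent of genes checked. Replicate pairs differed by more than counting noise (chi-square per degree of freedom of at least 3.83). Nothing states that replicates were separate cultures, so a p measures the spread between these samples, which may be technical.

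For the 7 deposited comparisons the deposited fold changes and adjusted p are the results, with a threshold of 0.05. Other comparisons were fitted with limma 3.58.1 (voom, R 4.3.3) on all libraries of an experiment, keeping genes whose mean reached 1 normalized read in any group; the recovery and the fit were tested on simulated data. The design had planned edgeR and DESeq2 on recovered reads, which were not run. A floor is 3 reads over a group. Wilson intervals (95 percent) and floors cover counting error only. Position groups were split at gaps over 2 Mb.

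Given in every library are the 6 members with the highest mean level in the RNAi experiment and those with the largest and smallest Day 1 fold change; members that stand alone, or up to 5 called or not called, are named. From each list up to 4 genes with the highest Day 1 levels were eligible. Other list genes, among them efn-2 and ssp-10, were named after their values were seen. The members and lists were chosen with earlier results of these data known.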

Additional observations from a re-analysis of the deposited data

Results flagged for a closer look

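The effect of P-granule RNAi on msp genes differed between Day 1 and L4. By limma voom, 34 of 35 members were called for the difference between the effects, all with the larger effect at Day 1, and 30 to 35 were called when single libraries were left out.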

How the results depend on the processing

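No paired analysis was possible because the recovered libraries carry no replicate numbers. The planned edgeR, DESeq2 and TMM alternatives were not run. Quality weights, scaling by total gene reads and leaving out the pseudogenes were chosen after the data were seen. For GFP-positive against GFP-negative gonads, the authors' deposited table had 6 members lower, and 3 at an adjusted p threshold of 0.01. The limma voom fit called 0, and still 0 with no filter on low counts, 6 with quality weights and 4 with scaling by total reads; leaving out single libraries gave 0 to 8, the 8 without GFP-positive library a and 0 without any other library. For glh-1 against wild type, the authors' deposited table had 6 members higher, and 2 at a threshold of 0.01. The limma voom fit called 17, and 22 with no filter, 18 with quality weights and 24 with scaling by total reads; leaving out single libraries gave 0 to 19, with 0 without wild-type library b, 10 without wild-type library c and 19 without glh-1 library b, where 1 glh-1 library remains and is assumed to vary like the other groups. The cause was not tested. Leaving out single libraries gave 31 to 35 members for Day 1 RNAi, 35 for both Day 2 comparisons with controls, 28 to 32 for pgl-1 him-3, 33 to 35 for Day 1 against L4 controls and 30 to 35 for the difference between stages. Of 440 recomputed log2 fold changes of named members, 0 turned direction where the member was called in the authors' deposited table. The 43 counted as moved by more than the replicate SD include any loss or change of direction in members not called. One such was msp-37 in pgl-1 him-3 gonads, which had reads in library a only and no direction without it. Reads on adult controls limit every fold change there: 97 at Day 1, 99 at Day 2 and 15 in wild type over all 35 genes.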
